A study of Mus musculus with 10 samples.

Results

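A group of 32 genes without a row in the deposited expression matrix had its highest nuclear RNA level in hemangioblast (HB) cells. The genes were chosen by their counts as a share of the library total (CPM): a gene of the count tables that is absent from the matrix was taken when it had at least 1 CPM in both HB libraries and an HB mean at least 3 times the mean of each of the other 4 stages. The count tables hold 55487 genes, 39801 of them outside the matrix, and 2278 of the latter reached 1 CPM in both HB libraries. The 32 genes are 1.4% of these 2278. The same rule took 255 of the 12517 matrix genes at that level (2.04%). Since HB against the other stages chose the genes, their HB levels are given as a description with no test.

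Nuclear RNA was measured by stranded RNA-seq in HM-1 cells, 1 mouse ES cell line with no further genetic change named in the labels, and in 4 populations derived from it in serum culture, with 2 libraries per stage. ES cells were undifferentiated and kept in LIF. HB cells were FLK1+ cells pulled with magnetic beads from embryoid bodies after 3 d, and they were replated for 2.5 d of blast culture with VEGF and IL-6. The 3 gates on that culture, all KIT+, gave the later stages. TIE2+ cells were HE1 when they lacked CD41 and HE2 when they carried it, and CD41+ cells without TIE2 were HP. The study calls the replicates biologically independent, while the labels name no separate cultures, and p-values measure only the spread between these libraries.

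The hemangioblast is a mesodermal cell that can give rise to blood and endothelium. It appears in the embryo as cells leave the primitive streak, under the control of T-box, homeobox and forkhead transcription factors such as Eomes, Lhx1 and Foxf1. Many genes of such factors have a long noncoding RNA beside them, transcribed from the opposite strand, and in the best studied cases (Fendrr, for example) the RNA has a role in mesoderm development of its own. Nuclear RNA holds many transcripts of this kind, together with the small nucleolar RNAs (snoRNAs) that guide the processing of ribosomal RNA. Processed pseudogenes are intronless copies of mRNAs, and reads from the parent gene can be placed on them.

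Libraries held between 24920434 and 58782055 counts. Kdr, which encodes FLK1, stood at 996 and 1265 CPM in the HB libraries against 2.33 and 2.58 in ES. The 30 genes of a list of FLK1+ mesoderm and haemangioblast genes summed to 4673 to 5153 CPM in HB and to 207 to 213 in ES, and 17 of the 30 met the HB-peaking rule. Pluripotency genes summed to 571 to 587 CPM in HB and 3272 to 3331 in ES. Of the HB sum, 392 and 441 CPM were Tbx3, which is also on the FLK1+ list, and Pou5f1 had 65.3 and 52.1 CPM in HB and Nanog 15.8 and 9.38. In HB, the summed levels of marker lists of other cells were 82.9 to 84.0 CPM for endoderm, 92.5 to 109 for neuroectoderm, 32.3 to 34.1 for cardiac muscle, 68.4 to 86.8 for blood and 263 to 328 for endothelium. Most of the endoderm sum was Sox7 (60.5 and 66.1 CPM) and Sox17 (15.2 and 12.2), which vascular cells also express, with Afp at 0.172 CPM or below, and most of the neuroectoderm sum was Nes (62.0 and 55.0) and Otx2 (46.2 and 36.9). In bulk samples, fewer cells of a type and less RNA per cell cannot be told apart.

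None of the 32 genes is protein coding, and neither are most outside genes: 0.878% of the 2278 at 1 CPM in HB are. GENCODE mouse release 21, which gave all 32 the same coordinates as the count tables, holds 8 as antisense RNAs, 7 as lincRNAs, 4 as processed transcripts, 4 as processed pseudogenes, 4 as snoRNAs, 3 in the provisional class TEC, 1 as a microRNA and 1 as a small nuclear RNA. Antisense RNAs made up 25% of the group and 6.54% of the 2278 outside genes at 1 CPM in HB, and processed pseudogenes 12.5% and 28.7%. The 32 genes lie in 30 separate stretches of the genome, because Rnu3a is annotated under 2 identifiers at 1 place and Rubie lies within Gm49319. The HB mean ran from 1.15 CPM (Gm29019) to 194.5 CPM (Rnu3a), with a median of 3.21, where CPM are not corrected for gene length. Both HB libraries lay above all 8 others in 31 of the 32, and in 9.17% of the 2278, which the rule leads to. The exception was Gm45258.

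By position and sequence, 7 genes lie beside an HB-peaking matrix gene on the opposite strand, 3 lie inside such a gene on its own strand and 1 just downstream of one, 4 are copies of such a gene, 5 are small nuclear or nucleolar RNAs, and 12 are none of these. Genes are named by rules on level, ratio and position given with the methods. The members outside these rules are named because each member is accounted for.

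**Figure D1:**
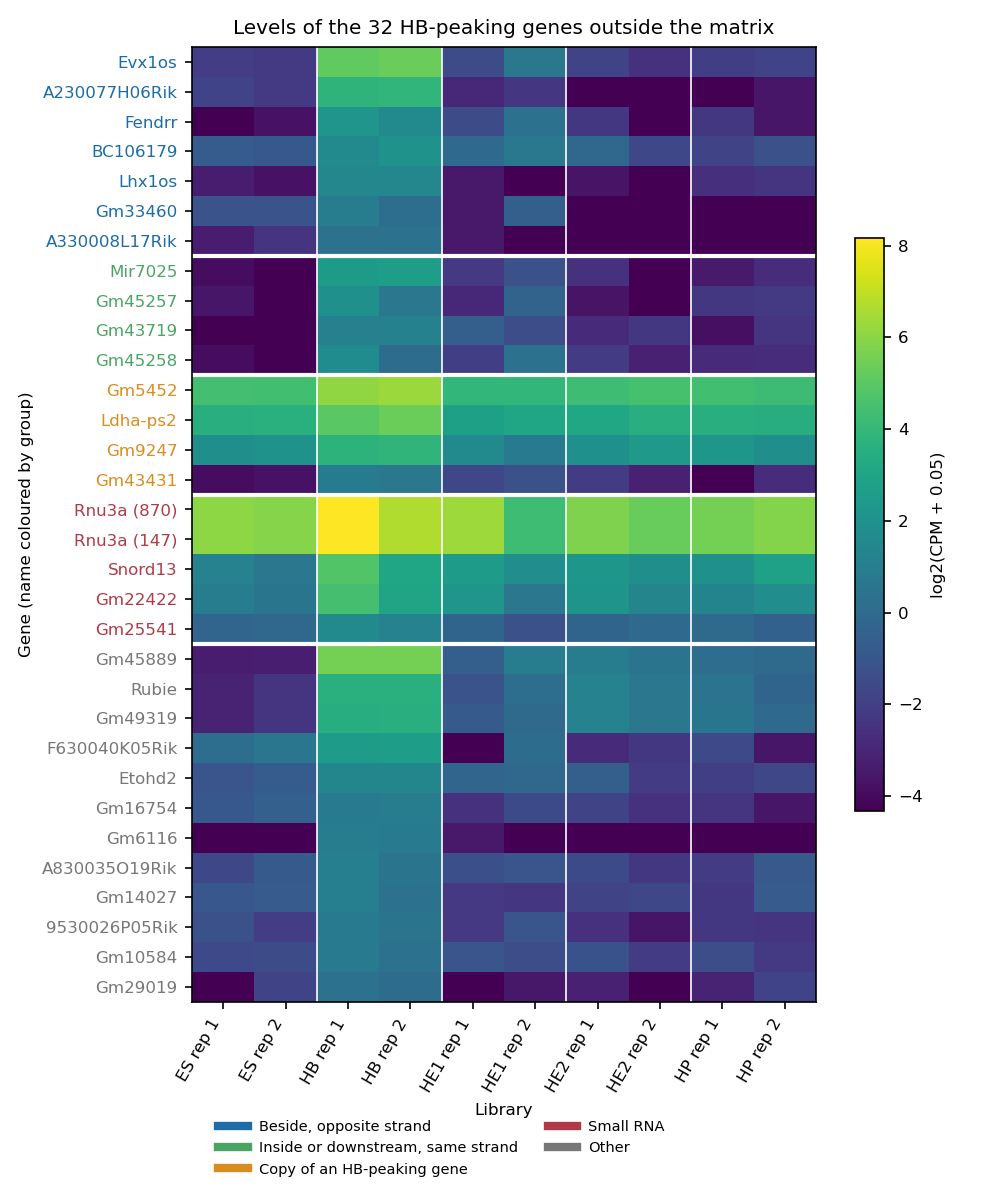
Level of each of the 32 genes (rows, names coloured by group; the numbers after Rnu3a are the last digits of its 2 identifiers) in each of the 10 libraries (columns), as log2(CPM + 0.05). Both HB libraries lie above the 8 others in every row but that of Gm45258, where HE1 replicate 2 (1.20 CPM) stood above HB replicate 2 (1.03 CPM), and the small RNA rows are brighter in HB replicate 1 than in HB replicate 2.

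The starts of 5 long noncoding genes are shown, those of 4 that begin beside an HB-peaking gene and that of Gm45889, which has no such neighbour. Each is the RefSeq window of GRCm38.p6 from 250 bases before to 50 bases after the start, 5′ to 3′ on the strand of the gene. Capitals mark matches on either strand to 6 motifs, whose letters follow the sequences.
Evx1os, chr6:52314783-52315082, minus strand: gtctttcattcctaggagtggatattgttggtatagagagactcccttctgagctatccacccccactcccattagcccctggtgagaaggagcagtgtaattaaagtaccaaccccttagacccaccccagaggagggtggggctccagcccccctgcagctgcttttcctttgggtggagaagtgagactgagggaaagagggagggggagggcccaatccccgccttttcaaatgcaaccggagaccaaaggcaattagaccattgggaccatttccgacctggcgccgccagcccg
Fendrr, chr8:121083061-121083360, minus strand: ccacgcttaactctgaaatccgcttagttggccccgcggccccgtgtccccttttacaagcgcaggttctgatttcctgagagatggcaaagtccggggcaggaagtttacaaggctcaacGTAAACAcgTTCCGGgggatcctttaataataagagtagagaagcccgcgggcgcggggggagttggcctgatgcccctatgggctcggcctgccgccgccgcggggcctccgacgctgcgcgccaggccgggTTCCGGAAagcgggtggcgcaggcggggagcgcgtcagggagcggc
Lhx1os, chr11:84525410-84525709, plus strand: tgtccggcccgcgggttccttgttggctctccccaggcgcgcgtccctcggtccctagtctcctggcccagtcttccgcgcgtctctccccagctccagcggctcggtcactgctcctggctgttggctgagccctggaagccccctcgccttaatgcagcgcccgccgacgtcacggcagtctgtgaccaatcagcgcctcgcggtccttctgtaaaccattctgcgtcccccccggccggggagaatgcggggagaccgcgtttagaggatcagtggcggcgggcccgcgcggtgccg
A330008L17Rik, chr8:99416424-99416723, plus strand: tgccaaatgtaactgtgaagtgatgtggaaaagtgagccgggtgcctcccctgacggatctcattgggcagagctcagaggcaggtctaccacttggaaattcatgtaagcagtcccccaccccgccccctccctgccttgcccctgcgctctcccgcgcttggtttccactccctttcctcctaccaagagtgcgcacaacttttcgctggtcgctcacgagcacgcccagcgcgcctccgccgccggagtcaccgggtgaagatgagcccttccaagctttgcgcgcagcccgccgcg
Gm45889, chr7:142282964-142283263, plus strand: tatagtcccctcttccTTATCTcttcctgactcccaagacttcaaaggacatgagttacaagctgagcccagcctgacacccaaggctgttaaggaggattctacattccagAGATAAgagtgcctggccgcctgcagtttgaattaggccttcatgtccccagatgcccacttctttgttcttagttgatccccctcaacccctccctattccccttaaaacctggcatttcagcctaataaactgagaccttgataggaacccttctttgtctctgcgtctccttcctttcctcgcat

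Of the 32 genes, 15 matched a RefSeq promoter by symbol. The motifs were searched on both strands of all 32817 RefSeq windows of this length. The letters AGATAA, of GATA factors, were in 11.2% of these windows. For GGTGTGA, of T-box factors, the share was 3.98%. For TGTTTAC, of FOX factors, it was 3.65%. For CTTTGAT, of TCF/LEF factors, it was 3.73%. For CCGGAA, of ETS factors, it was 14.9%. For TATAAA, the TATA box, it was 13.6%. The Fendrr window held 1 FOX match and 3 ETS matches, of which the last 2 overlap, and that of Gm45889 held 2 GATA matches. The windows of Evx1os, Lhx1os and A330008L17Rik held none of the 6 motifs. A match is a description of the letters and not a binding site. The observed-to-expected ratio of CpG was 0.997 for Fendrr, 0.926 for Lhx1os and 0.779 for A330008L17Rik, 0.252 for Evx1os and 0.188 for Gm45889, against a median of 0.383 over all windows. Over the 15 windows of the group the ratio ran from 0.0960 (F630040K05Rik) to 0.997, and Etohd2 had 0.853 and BC106179 0.718.

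The first question was what lies next to the 32 genes. The nearest matrix gene by annotated start was itself HB-peaking for 10 of the 32 (31.25%), compared with 26 of the 2246 other outside genes at 1 CPM in HB (1.16%). For 16 of the 32 the nearest matrix gene started within 10 kb, where both Rnu3a identifiers have the same neighbour. For 7 of these 16 members that gene was HB-peaking (43.75%), against 2 of 904 (0.221%) for the other outside genes. Among the HB-peaking neighbours, Pdgfra shares an exon with its member and therefore shares reads with it. Cdh11 is counted for 2 members, Gm45257 and Gm45258, which lie inside it on its own strand. Gm45258 is also among the 7 within 10 kb. These counts are therefore not independent of how the members were chosen.

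The rule did not use the levels of the neighbours, so that HB against ES and HB against HE1 could be tested in them. There were 29 distinct neighbours, and Pdgfra and Tcf20 were left out because they share exons with a member. In the remaining 27, the edgeR quasi-likelihood test called 12 higher in HB than in ES and 1 lower, beside 11.5% higher and 17.3% lower among all 22596 genes tested. Of the 14 neighbours that start within 10 kb of a member, 9 were among the 12. In HB against HE1 it called 8 higher and 2 lower, beside 8.19% and 12.7% of all genes. The 12 were Evx1, Vstm2b, Foxf1, St6gal1, Lhx1, Eomes, Cdh8, Cdh11, Mef2c, Pcdh9, Isca1 and Adamts9, and the first 8 of these were also called higher in HB than in HE1. Cdh11 holds 2 members inside it on its own strand, so that its test is not independent of how they were chosen. Mef2c, a transcription factor of heart and blood vessels, was called lower in HB than in HE1 (log2 fold change -2.25, SE 0.29), and lies 328 kb from the member it is nearest to. Sema3e was called lower in HB against both stages.

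Evx1os is an antisense RNA at chr6:52308389-52314832, minus strand, which overlaps Evx1, a homeobox gene of the primitive streak, and whose start lies 1334 bases from that of Evx1. Its level was 35.1 and 39.1 CPM in the HB libraries. The ES pair had 0.187 and 0.165 CPM, the HE1 pair 0.321 and 1.49, the HE2 pair 0.242 and 0.122, and the HP pair 0.20 and 0.237. The HB libraries stood apart from all others, and HE1 replicate 2 was the next highest. Evx1 stood at 111 and 109 CPM in HB and at 0.493 and 0.329 in ES, and it was higher in HB than in ES by 7.93 on the log2 scale (SE 0.69, adjusted p = 1.39e-05, edgeR quasi-likelihood test) and higher than in HE1 by 6.08 (SE 0.62, adjusted p = 8.75e-05, edgeR). On the CPM scale, which does not correct for gene length, Evx1os was 31.5% and 35.9% of Evx1 in the HB libraries. The exons of the pair share 73 bases on opposite strands.

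A230077H06Rik, an antisense RNA at chr7:40818476-40900937 on the minus strand, starts inside Vstm2b, which encodes a membrane protein of the immunoglobulin family. It had 13.7 and 14.8 CPM in HB, 0.238 and 0.165 in ES and 0.080 and 0.149 in HE1. Both HE2 libraries and HP replicate 1 had no count, and HP replicate 2 had 0.034 CPM. The HB mean was 70.8 times that of ES, its next highest stage. Vstm2b stood at 173 and 175 CPM in HB and at 0.697 and 1.07 in ES, higher in HB by 7.57 on the log2 scale (SE 0.43, adjusted p = 1.09e-06, edgeR quasi-likelihood test). Against HE1 the difference of Vstm2b was 6.12 (SE 0.40, adjusted p = 8.19e-06, edgeR).

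Fendrr starts 1276 bases from Foxf1 and runs away from it, at chr8:121054882-121083110 on the minus strand. Foxf1 is a forkhead factor of lateral mesoderm, and Fendrr is known to be needed for heart and body wall development. Fendrr had 4.47 and 2.97 CPM in HB, 0 and 0.027 in ES and 0.321 and 1.23 in HE1. The HE2 pair had 0.151 and 0 CPM and the HP pair 0.155 and 0.034. The HB libraries were again above all others, with HE1 replicate 2 next. Foxf1 had 22.1 and 28.5 CPM in HB, 7.50 and 6.39 in HE1 and 0.153 and 0.110 in ES. It was higher in HB than in ES by 7.44 on the log2 scale (SE 0.63, adjusted p = 1.22e-05, edgeR quasi-likelihood test) and higher than in HE1 by 1.89 (SE 0.45, adjusted p = 0.0103, edgeR).

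Among the 7 genes on the opposite strand, Lhx1os and A330008L17Rik start closest to their HB-peaking neighbours. Lhx1os (chr11:84525660-84535831, plus strand) starts 125 bases from Lhx1, a LIM homeobox factor of early mesoderm, and runs away from it. It had 2.68 and 2.75 CPM in HB and at most 0.135 CPM in any other library. Lhx1 rose to 266 and 232 CPM in HB from 0.391 and 0.165 in ES, by 9.61 on the log2 scale (SE 0.89, adjusted p = 2.06e-05, edgeR quasi-likelihood test). On the CPM scale Lhx1os was 1.01% and 1.18% of Lhx1 in HB, the stage with the highest level of both. In the other 8 libraries, with at most 5 counts of Lhx1os each, this share ran from 0% to 25%. A330008L17Rik (chr8:99416642-99733438, plus strand) starts 171 bases from Cdh8, which encodes a cadherin, and had 35 and 46 counts in HB, 3 and 5 in ES, 1 and 0 in HE1 and 0 in the HE2 and HP libraries. Cdh8 had 12.7 and 14.9 CPM in HB and at most 0.153 CPM elsewhere.

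BC106179 starts 744 bases from St6gal1, a sialyltransferase gene, and had 3.13 and 4.27 CPM in HB and 0.923 and 1.53 in HE1. Its ratio of 3.02 to HE1 is the smallest of the whole group. St6gal1 was higher in HB than in ES by 2.76 on the log2 scale (SE 0.40, adjusted p = 0.000364, edgeR quasi-likelihood test). Gm33460 starts 10.9 kb from Eomes, a T-box factor of the primitive streak, and 118 of its exonic bases (22.0%) lie opposite Eomes exons. Gm33460 had 1.86 and 1.08 CPM in HB, 0.408 and 0.412 in ES, 0.040 and 0.635 in HE1, and none in HE2 or HP. On the CPM scale it was 0.327% and 0.174% of Eomes in HB and 7.27% and 7.85% in ES, so that this ratio differed between the stages. Eomes rose by 6.70 on the log2 scale from ES to HB (SE 0.44, adjusted p = 2.59e-06, edgeR). Whether reads of the opposite strand add to the antisense counts was not tested.

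**Figure D2:**
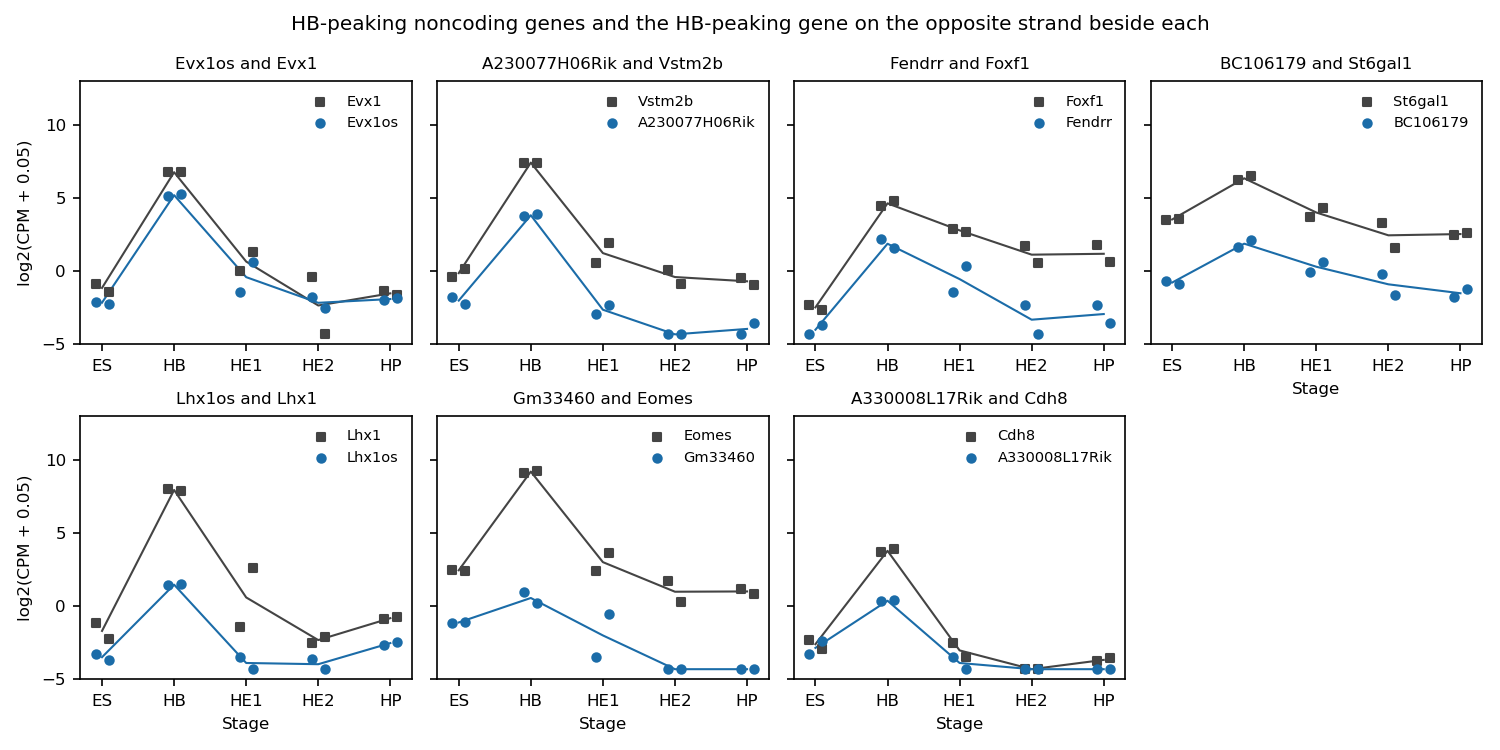
Level of 7 noncoding genes (blue circles) and of the HB-peaking matrix gene beside each on the opposite strand (dark squares), as log2(CPM + 0.05), by stage, with 1 point per library and lines through the means of the 2 log values. Each pair is highest in HB, and Evx1os at 35.1 and 39.1 CPM comes closest to its neighbour.

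The nearest matrix genes of other members did not all rise with HB. Rnu3a starts 359 bases from Gtf3c6, Snord13 348 bases from Tti2 and Gm22422 1932 bases from Trmt10c. The HB against ES differences of these neighbours were 0.05, 0.16 and -0.04 on the log2 scale (SE 0.21, 0.14 and 0.16), and none passed the test. Etohd2, with 2.65 and 2.61 CPM in HB, starts 313 bases from Isca1, an iron-sulfur cluster assembly gene. Isca1 was higher in HB than in ES by 1.19 (SE 0.14, adjusted p = 9.4e-05, edgeR quasi-likelihood test), and its difference from HE1 was 0.12 (SE 0.14).

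Another set of members lies on the strand of an HB-peaking gene. Mir7025 (chr5:75176831-75176904, plus strand) is a microRNA gene that overlaps an exon of Pdgfra, the receptor for platelet-derived growth factor found on early mesoderm. Its RefSeq mature sequences are shown because they are what the gene is named for, with the seed (bases 2 to 8) in capitals.
mmu-miR-7025-5p, chr5:75176836-75176859, plus strand: cGUGAGCUgaagcugguggcuccc
mmu-miR-7025-3p, chr5:75176878-75176899, plus strand: cAGCACAAcuccagcucaccag
The counts are of reads over the precursor and not of the mature RNA, and a read pair on the shared exon was counted on both genes. Mir7025 had 5.58 and 6.35 CPM in HB, 0.161 and 0.373 in HE1 and at most 0.121 elsewhere, while Pdgfra had 201 and 193 CPM in HB and 6.22 and 6.80 in HE1. On the CPM scale Mir7025 was 2.78% and 3.30% of Pdgfra in the HB libraries.

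Gm45257 and Gm45258 lie inside Cdh11 on its strand, without touching its exons, at chr8:102654191-102658188 and chr8:102780190-102781042. Cdh11 encodes a cadherin of mesenchymal cells and had 236 and 268 CPM in HB. Gm45257 had 3.75 and 1.50 CPM in HB and 0.080 and 0.747 in HE1, and Gm45258 had 3.27 and 1.03 in HB and 0.201 and 1.20 in HE1. The HB libraries therefore differed by 2.50 and 3.19 times in genes where Cdh11 itself was slightly higher in HB replicate 2. Gm43719 (chr5:13604035-13606233, plus strand) begins 1470 bases past the end of Sema3a, which encodes a secreted guidance protein. It had 2.10 and 2.22 CPM in HB, and Sema3a 50.8 and 56.2. Reads of unspliced RNA cannot be told apart from transcripts of these 3 genes in the counts.

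Copies of 2 HB-peaking genes form another set. Gm5452, Ldha-ps2 and Gm9247 are processed pseudogenes of Ldha, the lactate dehydrogenase of glycolysis, and their transcripts match Ldha transcripts at 95.9%, 94.7% and 95.6% of aligned bases. The first window of 60 coding bases of Ldha (positions 168 to 227, counted from the start codon) in which all 3 copies align without gaps and differ is shown to give the distance between them, with bases that differ from Ldha in capitals.
Ldha: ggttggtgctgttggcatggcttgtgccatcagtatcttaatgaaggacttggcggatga
Gm5452: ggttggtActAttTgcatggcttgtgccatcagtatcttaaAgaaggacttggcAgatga
Ldha-ps2: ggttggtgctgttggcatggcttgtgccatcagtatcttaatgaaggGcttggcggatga
Gm9247: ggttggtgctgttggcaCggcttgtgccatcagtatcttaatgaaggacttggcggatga
Over this window Gm5452 differs at 5 bases and the others at 1 base each, which a single read may or may not cover.

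Gm5452 (chr13:83832340-83833336, plus strand) had 68.8 and 77.9 CPM in HB and between 15.5 and 22.8 in the other 8 libraries. Ldha had 1860 and 2138 CPM in HB and between 378 and 656 in the other libraries. Gm5452 stayed between 3.47% and 4.09% of Ldha in all 10 libraries. Ldha-ps2 (chr4:119334389-119335445, minus strand) stayed between 1.70% and 2.16%, with 31.6 and 40.4 CPM in HB, and Gm9247 (chr14:93194698-93195696, minus strand) between 0.474% and 0.836%, with 13.4 and 14.3 CPM in HB. The lowest share of Gm9247, in HE1 replicate 2, rests on 48 counts. The HB shares of the 3 copies lay within the range of the other 8 libraries, except that of Ldha-ps2 in HB replicate 1, which was the lowest. Their counts cannot be told apart from misplaced Ldha reads. Gm43431 (chr5:88423215-88423554, plus strand) matches a Sema3a transcript at 98.8% of 340 bases and had 1.72 and 1.50 CPM in HB, 3.39% and 2.67% of Sema3a. Its counts likewise cannot be told apart from misplaced Sema3a reads.

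**Figure D3:**
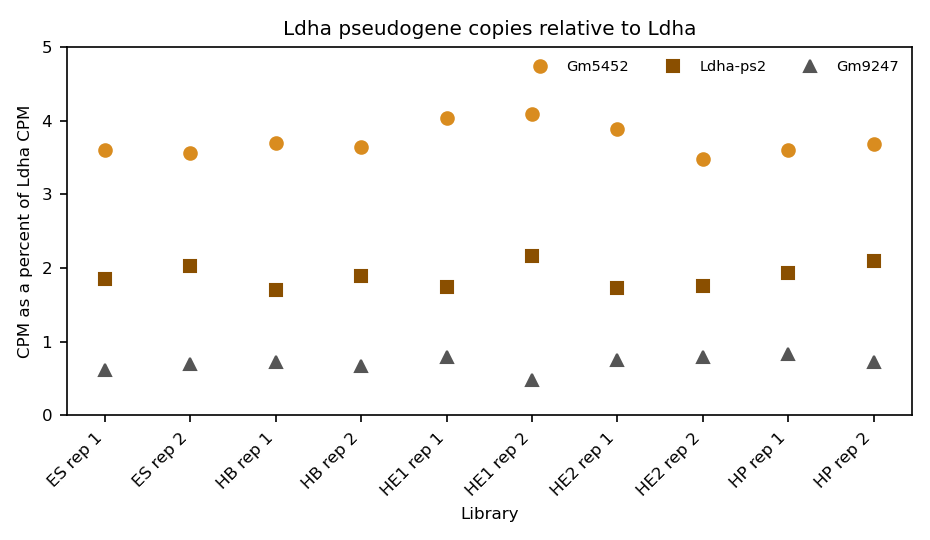
CPM of 3 Ldha pseudogene copies as a percent of the CPM of Ldha in each library. Gm5452 lies between 3.47% and 4.09%, Ldha-ps2 between 1.70% and 2.16% and Gm9247 between 0.474% and 0.836%, and the HB libraries lie within the range of the others except Ldha-ps2 in HB replicate 1, the lowest at 1.70%.

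The small RNAs come next. Rnu3a encodes U3, the snoRNA that starts the cleavage of the ribosomal RNA precursor, and is counted under 2 identifiers at chr10:40258467-40258680. It had 288 and 101 CPM in HB. The ES pair had 66.7 and 58.9 CPM, the HE1 pair 79.7 and 19.2, the HE2 pair 53.2 and 38.7, and the HP pair 47.5 and 57.1. HB replicate 1 was far above the rest, while HB replicate 2 was 1.61 times the ES mean. Snord13 (chr8:31149864-31149967, minus strand), a snoRNA that guides a base modification of ribosomal RNA, had 27.8 and 8.30 CPM in HB and between 1.51 and 7.0 elsewhere. Gm22422, a snoRNA gene inside Trmt10c, had 22.4 and 7.82 CPM in HB and between 1.40 and 4.57 elsewhere. Gm25541, a small nuclear RNA gene, had 3.06 and 2.25 CPM in HB and between 0.373 and 0.931 elsewhere.

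The HB libraries differed in these RNAs as a class. Among 229 outside snoRNA genes at 1 CPM in HB, 218 were higher in HB replicate 1 (95.2%), compared with 63.8% of all 2278 outside genes at that level. Outside snoRNA genes summed to 4961 and 2718 CPM in HB. The sums were 3873 and 3895 CPM in ES, both above HB replicate 2, and between 1269 and 2036 in the HE1, HE2 and HP libraries. With HB replicate 2 as the only HB library, Rnu3a, Snord13, Gm22422 and Gm25541 no longer met the rule, nor did Gm45258, Gm33460 and Gm14027. The part of this difference in the level of the small RNAs was not tested. Another U3 gene, Rnu3b1, had 335 and 133 CPM in HB, and a ratio of 2.79 to the next stage left it outside the group.

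**Figure D4:**
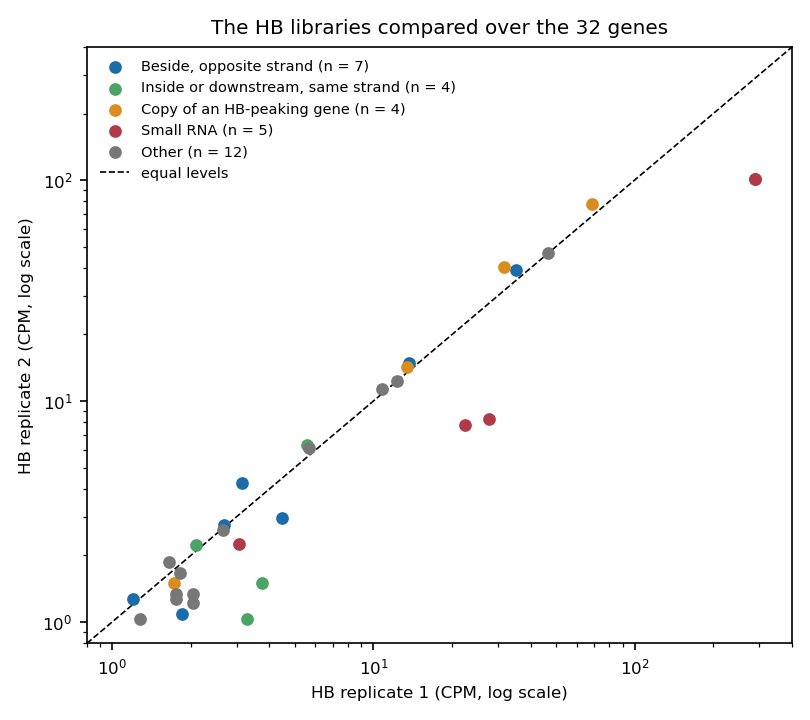
CPM of the 32 genes in HB replicate 1 (x axis) and HB replicate 2 (y axis), both on log scales, coloured by group, with a dashed line of equal levels. Below the line lie 19 of the 32 genes. Among them are the 5 small RNA genes and the 2 genes inside Cdh11, the latter at 3.75 and 1.50 and at 3.27 and 1.03 CPM.

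Gm45889 opens the 12 remaining genes. It is a lincRNA at chr7:142283210-142290418 on the plus strand, 90.5 kb from the start of the nearest matrix gene. It had 46.6 CPM in both HB libraries, which is 29.0 times the mean of HE2, the next stage. The ES pair had 0.051 and 0.055 CPM, the HE1 pair 0.642 and 1.91, the HE2 pair 1.84 and 1.37, and the HP pair 1.06 and 0.946. Its longest transcript matches a transcript of Gm14226 at 85.7% of bases, and Gm14226 had at most 0.149 CPM in any library.

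Rubie and Gm49319 share exons on the minus strand of chromosome 14, where Rubie spans 46568263 to 46598425, and their reads overlap. Rubie was named for its place near Bmp4, a growth factor that induces mesoderm, and starts 208 kb from it. It had 12.3 CPM in both HB libraries. The ES pair had 0.068 and 0.137 CPM, the HE1 pair 0.401 and 1.08, the HE2 pair 2.27 and 1.52, and the HP pair 1.29 and 0.777. Gm49319 had 10.8 and 11.4 CPM in HB. Bmp4 had 93.4 and 138 CPM in HB and between 20.8 and 54.6 in the other libraries, which left it short of the rule.

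Gm6116 (chr5:74949190-74966368, plus strand) had 53 and 60 counts in HB, 1 count in HE1 replicate 1 and 0 in the other 7 libraries. A count of 0 allows up to 3 counts, which is 0.051 to 0.120 CPM, for counting error only. The matrix gene nearest to Gm6116 is Chic2, which starts 95584 bases away on the opposite strand and was not HB-peaking. Chic2 had 44.0 and 42.3 CPM in HB and 37.6 and 52.6 in HE1. Pdgfra, which is HB-peaking, lies farther off, and Gm6116 starts 203 kb before it on the same strand. F630040K05Rik had 5.68 and 6.16 CPM in HB and 1.11 and 1.45 in ES, and in HE1 it had 0 in replicate 1 and 1.01 CPM in replicate 2.

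The last 7 genes had HB means between 1.15 and 2.63 CPM. Etohd2, Gm16754, A830035O19Rik, 9530026P05Rik and Gm10584 are antisense RNAs whose neighbours were not HB-peaking. Gm14027 shares an exon with Zc3h6, and Gm29019 with Tcf20. Gm29019 was 0.449% and 0.367% of Tcf20 on the CPM scale in HB and at most 0.097% in the other libraries, while Tcf20 itself had 284 and 279 CPM in HB and 476 and 490 in ES. Just inside the limit of 3 were BC106179 (3.02), Gm16754 (3.05) and Gm45258 (3.08), and just outside it were Gm49330 (2.97), Gm15283 (2.89) and Gm11814 (2.86).

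Lists of noncoding RNAs held few of the 32. Of 17 listed mesoderm and heart noncoding RNAs found in the tables, all outside the matrix, 4 reached 1 CPM in both HB libraries, and 3 of these 4 were in the group, namely Evx1os, Fendrr and Lhx1os. The 4th, Hand2os1, had 14.7 and 13.6 CPM in HB and 17.4 and 49.3 in HE1. Lists of 16 HOX cluster noncoding RNAs, 11 imprinted noncoding RNAs, 16 pluripotency microRNAs and noncoding RNAs, and 8 haematopoietic microRNAs and hosts held no gene of the group.

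HE1 was compared with ES to see whether the genes were at their ES level after HB. The rule holds both stages under the same limit and does not use the difference between them. All 32 genes passed the filter on low counts, which the HB libraries alone could meet. The edgeR quasi-likelihood test called 10 higher and 1 lower in HE1 than in ES, beside 20.3% higher and 20.4% lower among all 22596 genes. With only the 4 libraries of ES and HE1, 23 of the 32 genes passed the filter, and 5 were called higher and 1 lower.

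The 10 genes higher in HE1 were at low levels in both stages. Gm45889 had 3 and 2 counts in ES and 16 and 51 in HE1, a rise of 4.37 on the log2 scale (SE 0.55, adjusted p = 9.37e-05, edgeR quasi-likelihood test). Gm43719 had no count in ES and 16 and 9 counts in HE1, at least 15.5-fold higher against a floor of 3 counts over the ES stage (adjusted p = 0.0015, edgeR). Fendrr had 1 count in ES and 41 in HE1, a ratio of 75.5 with a 95% counting interval of 12.8 to 3055 (adjusted p = 0.00451, edgeR).

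Evx1os (2.18, SE 0.56), Rubie (2.75, SE 0.61) and Gm49319 (2.73, SE 0.55) were also called higher, on the log2 scale, and Evx1os missed the threshold with only the 4 libraries (2.24). The other 4 of the 10 could not be tested with the 4 libraries alone, because they passed the filter only through the HB libraries that chose them, and are given as values. Gm45258 had 1 count in ES and 37 in HE1, a ratio of 68.2 with a counting interval of 11.5 to 2764. Mir7025 had 1 and 14 counts, a ratio of 25.8 with an interval of 3.92 to 1090. Gm45257 had 2 and 22 counts (ratio 20.3, interval 4.98 to 178), and Gm43431 had 2 and 17 (ratio 15.7, interval 3.72 to 140). The 22 counts of Gm45257 were 2 and 20 in the HE1 libraries. Cdh11, which holds Gm45257 and Gm45258, had means of 0.516 CPM in ES and 17.2 in HE1. Sema3a, which Gm43431 matches and Gm43719 follows, had 0.396 and 9.01, and Pdgfra, which holds Mir7025, 2.04 and 6.51. The part of these genes in the counts of the members was not tested. Gm14027 fell by 1.82 on the log2 scale (SE 0.70, adjusted p = 0.0473, edgeR). Gm5452 and Ldha-ps2 had log2 differences of -0.58 and -0.77, with adjusted p-values of 0.0181 and 0.014 (edgeR) but under 2-fold.

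Without HE1 replicate 2, 6 genes were called higher. Evx1os was then lost (0.85 on the log2 scale, adjusted p = 0.265, edgeR). Of the 4 genes given as values, Gm45257 had 1.81 on the log2 scale, Mir7025 3.58 and Gm45258 3.90 without this library, and these 3 were not among the 6. The call of Gm14027 was lost with limma-voom, DESeq2, total counts, no filter and the replicate block, and without either library of ES, HB, HE1 or HE2 (between -1.64 and -2.01). Of the 32 genes 19, and of the 255 HB-peaking matrix genes 196, were higher in HE1 replicate 2 than in replicate 1, as were 9821 of all 15686 matrix genes and 19 of the 30 FLK1+ mesoderm and haemangioblast genes, which summed to 2331 CPM in replicate 1 and 1900 in replicate 2. Markers of other cells also differed between the HE1 libraries. Of 11 pluripotency genes 8 were higher in replicate 2, although their sums were 297 CPM in replicate 1 and 287 in replicate 2. Pou5f1 had 2.69 and 29.7 CPM, Nanog 0.682 and 13.1, and Sox2 0.682 and 10.5, while Tbx3 had 121 and 76.1. The 16 pluripotency microRNAs and noncoding RNAs summed to 5.74 and 21.3 CPM. Of 7 cardiac muscle markers 6 were higher in replicate 2, with sums of 84.4 and 149 CPM and 15.2 and 84.0 CPM for Tnnt2. Markers of endothelium and blood ran the other way, with 1 of 8 and 1 of 10 higher in replicate 2 and sums of 3528 and 2437 CPM for endothelium and 754 and 450 CPM for blood. The part of these differences in the result was not tested.

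**Figure D5:**
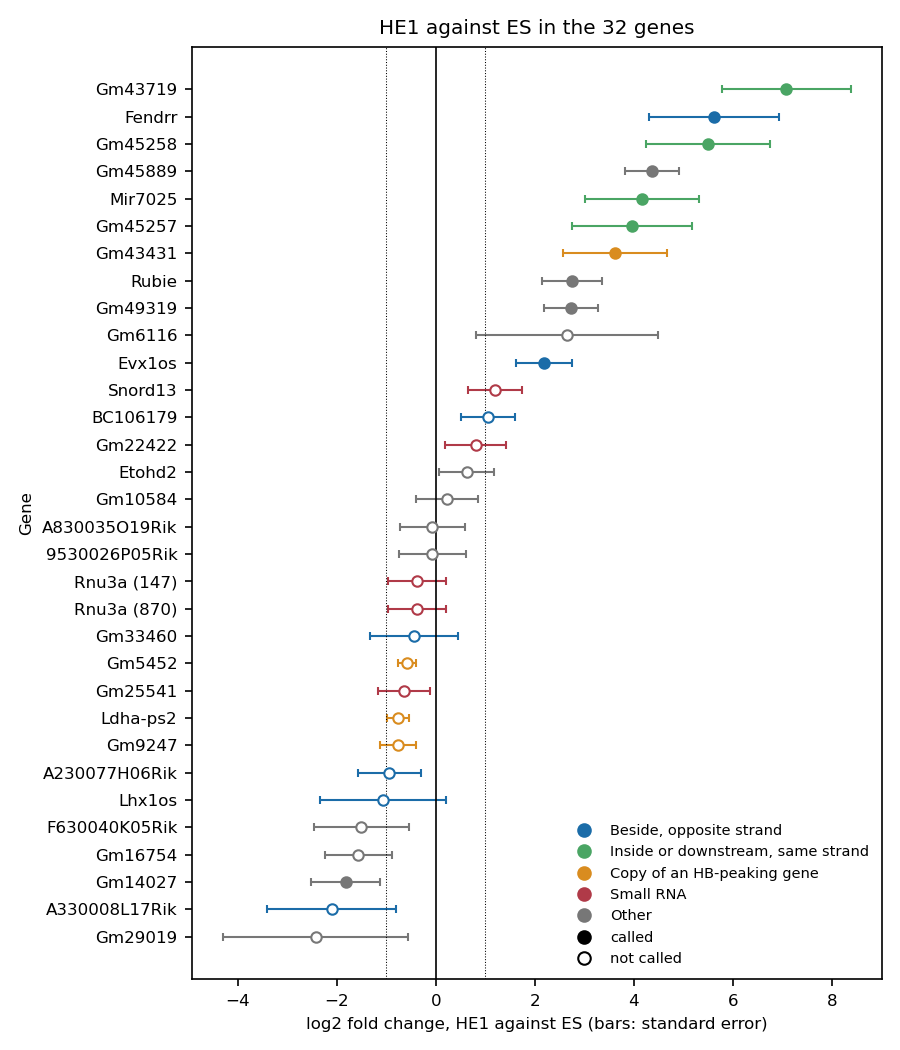
Log2 fold change of HE1 against ES for each of the 32 genes (points, coloured by group) with standard errors (bars), sorted by size; filled points were called by edgeR at an adjusted p under 0.05 and at least 2-fold, and dotted lines mark 2-fold. Of the 10 filled points above 0, Mir7025, Gm45257, Gm45258 and Gm43431 passed the filter only through HB, and that of Gm43719 is a fitted value over 0 counts in ES, for which at least 15.5-fold is the bound. Gm14027 at -1.82 is the only one called lower.

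HE2 was then compared with HE1. The edgeR quasi-likelihood test called none of the 32 higher and 2 lower, beside 3.26% higher and 5.39% lower among all genes. DESeq2 called 2 higher. At an unadjusted p under 0.05 edgeR had 5 of the 32 higher and 8 lower, and 3549 of all 22596 genes higher and 4442 lower, where 16 of the 32 were tested only through libraries outside this comparison. The 2 genes called lower passed the filter only through libraries outside HE1 and HE2, and are given as values. Evx1os went from 8 and 40 counts in HE1 to 8 and 4 in HE2 with a log2 difference of -2.18 (SE 0.60). A230077H06Rik had 2 and 4 counts in HE1 and none in HE2, at least 2.53-fold lower against the floor. With only the 4 libraries of HE1 and HE2, 16 of the 32 genes passed the filter and none was called. Both calls were lost with limma-voom and without HE1 replicate 2, HE2 replicate 2, or either library of ES or HB. Of the 2 calls, 1 was lost without HP replicate 1, and the number called also changed without HE1 replicate 1. Rubie (1.46, SE 0.48) and Gm49319 (1.47, SE 0.44) had the opposite sign and missed the threshold, with adjusted p-values of 0.0656 and 0.0505 (edgeR).

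Between HE2 and HP, edgeR called none of the 32 in either direction, and 0% of all genes. With only the 4 libraries of HE2 and HP, 13 of the 32 passed the filter, and none of these was called. At an unadjusted p under 0.05, 1 of the 32 was higher in HP, Lhx1os with 1 count in HE2 and 9 in HP, as were 670 of all 22596 genes. Lhx1os was not among the 13. Limma-voom and DESeq2 also called none of the 32. Over all genes, limma-voom called 35 higher and 27 lower, and DESeq2 108 higher and 193 lower.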

How the data were processed

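Nuclear RNA-seq of 10 libraries was analysed. The authors removed rRNA reads, trimmed with Trimmomatic and used Hisat2 (v2.2.1, mm10) and featureCounts (v2.0.1). They deposited raw counts of fragments by strand on exons of Ensembl genes, where a fragment over several genes counts for each. In the matrix, which covers 15686 genes, the authors gave each stage a single expression score, and only its gene list was used. CPM were computed over all genes of a library.

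Stages were compared in R (v4.3.3) by the quasi-likelihood test of edgeR (v4.0.16), with TMM, filterByExpr and stage as the only term. The fit used 10 libraries (5 residual degrees of freedom), and Benjamini-Hochberg adjustment covered 22596 genes. Calls needed an adjusted p-value under 0.05 and 2-fold. The fit was tested on simulated data. Alternatives were limma-voom (v3.58.1), DESeq2 (v1.42.0), total counts, no filter, the 4 libraries compared, a replicate term, 4-fold, and leaving out each library. A BLAST match (v2.17.0) of at least 90% identity over 75% of a transcript made a copy. Beside meant starts within 20 kb, and downstream within 5 kb.

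Named genes were the 12 with the highest HB mean, the 8 with the largest ratio, those on noncoding lists, the largest called changes, the 3 nearest to the limit on each side, and the 10 highest within 10 kb of a matrix gene with that gene. Members and lists were chosen with earlier results of these data known. Biotypes came from GENCODE mouse release 21, and promoter and microRNA sequences from RefSeq. Counting intervals are exact and cover counting error only.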

Additional observations from a re-analysis of the deposited data

How the results depend on the processing

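With 2 libraries per stage, the number of HB-peaking genes outside the matrix depends on its limits. It was 32 as reported, 68 at 2-fold, 18 at 4-fold, 20 with 2 CPM in both HB libraries and 14 when the lower HB library had to be 3 times the highest other library. It ranged from 29 to 56 when single libraries were left out, with 56 without HB replicate 2 (28 of them shared with the 32). TMM-scaled sizes gave 27, of which 26 were shared with the 32. Both Rnu3a entries, Ldha-ps2, Gm9247, Gm14027 and Gm16754 did not meet the rule with these sizes.

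HE1 against ES gave 10 higher, 5 with only the 4 libraries compared (23 members tested), and 6 to 11 without single libraries. The 1 gene lower, Gm14027, became 0 with DESeq2, total counts, the replicate block and 4-fold, and 0 to 3 without single libraries. Gm14027 also missed the threshold with limma-voom (adjusted p = 0.0600) and with no filter (0.0546). HE2 against HE1 gave 0 higher, 2 with DESeq2 and 2 with no filter, and 0 to 3 without single libraries. Its 2 lower became 0 with limma-voom, with only the 4 libraries compared and with the replicate block. They became 5 with DESeq2, beside 1795 of all 22596 genes, and 7 with no filter, beside 2864 of all 39019. The number also changed when single libraries were left out. HP against HE2 stayed at 0 throughout. The causes were not tested.

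For the neighbours, HB against ES stayed at 12 higher without single libraries, and its 1 lower became 0 within 10 kb (14 neighbours). HB against HE1 gave 7 to 8 higher and 2 to 3 lower without single libraries, and its 2 lower became 1 at 4-fold and 0 within 10 kb. Total counts moved the median of all genes in HE1 against ES from -0.04 to 0.07 on the log2 scale. Samples share only a replicate number: deviations of replicate 1 from the stage mean correlated between -0.316 and 0.213 across pairs of stages, and the replicate block gave 10 higher in HE1 against ES, beside the 3 calls lost above. Low counts outside HB, such as 1 count in all for Gm6116, limit what could be detected.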
